A study of Mus musculus with 16 samples.

Results

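Expression of 10 genes of the nuclear factor kappa B (NF-kB) system was followed in mouse follicular B cells whose antigen receptor was or was not self-reactive. The genes were the 5 NF-kB subunits (Nfkb1, Nfkb2, Rel, Rela and Relb) and 5 inhibitors (Nfkbia, Nfkbib, Nfkbie, Nfkbiz and Tnfaip3). They were chosen by symbol, as every probe that the array design names for one of these genes, which gave 14 probes. All 10 genes passed the filter on dim probes, and they stand among 20469 genes tested.

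NF-kB subunits work in pairs as transcription factors and are held in the cytoplasm by inhibitor of kappa B (IkB) proteins until a signal has the inhibitor degraded. Engagement of the B cell receptor and of CD40 or the BAFF receptor are known triggers in B cells. Several inhibitors, among them the products of Nfkbia and Tnfaip3, are themselves encoded by NF-kB target genes and so act as negative feedback.

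All mice were of strain C.B17, and the cells were labelled follicular B cells, the mature B cells that recirculate between spleen and lymph nodes. Auto.Pos cells (2 samples) came from AGcAμκTg mice, which carry a VH3609μ/Vk19-17κ receptor transgene against intestinal goblet cells (Vkappa17-17kappa in the genotype field). Auto.Neg cells (2 samples) came from ATAμκTg mice with a VH3609μ/Vk21-5κ receptor against the thymocyte antigen Thy-1, on a Thy-1 knockout background, so that the antigen was missing. WT cells (2 samples) were wild type. Edited and Non-edited cells (1 sample each) came from VH3609t +/- x Vk21-5Tg +/- mice on the Thy-1 knockout background, editing being the replacement of a receptor chain by further gene rearrangement. Auto.Pos and Auto.Neg therefore differ in light chain and in Thy-1 genotype as well as in the presence of antigen, and these cannot be told apart. The labels give no promoter for the transgenes nor whether a group's samples are separate mice, so the p-values cover the spread among the samples at hand, which may be technical.

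Each sample was hybridised on 2 arrays, once in each dye, against a reference RNA pooled from several cell lines (R1, RS2, J558, then EL4, DN3 and also P388d). Each value is the log2 of the sample-to-reference ratio, averaged over the dye-swap pair, so 0 means the level of the reference pool and a difference of 1 is a doubling. Ratios of different genes are not compared as levels. The number of arrays limits the precision, and per array 61.9% to 81.9% of probes had a sample signal well above background. The 10 follicular B cell markers all read above the reference in all 8 samples, with medians per sample of 3.45 to 5.39, and 7 of 10 T cell markers read below it in all 8. Of the macrophage and monocyte markers tested, 9 of 11 also read above the reference in all 8 samples, as did 6 of 8 neutrophil markers. Such readings depend on the reference pool as well as on the samples.

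The samples also differ in processing batch, which matters for several of the genes. The arrays of Auto.Pos sample 1, Auto.Neg sample 2 and WT sample 1 were extracted with the scanner protocol GE2-v5_91_0806 and the others with GE2-v5_95_Feb07, so each replicated group holds 1 sample of each. Auto.Pos sample 1 and Auto.Neg sample 2 share slide 2, and no other slide holds more than 1 sample. Slide 2 was the only slide of scan day 2, so slide and day cannot be told apart there. WT sample 1 was scanned on day 1, and Auto.Pos sample 2 and WT sample 2 on day 3. Auto.Neg sample 1, Edited and Non-edited were scanned on day 4. On slide 2 both samples lay beyond all 6 others for 39% of genes. Their ratios correlated at 0.98 across genes, which are not independent replicates, against 0.90 between the Auto.Pos samples and 0.90 between the Auto.Neg samples. Samples on different slides could correlate as closely: Auto.Neg sample 1 and Non-edited at 0.98, and Edited and Non-edited at 0.97. Differences within each protocol, from 1 sample per group, are therefore given beside the group differences, and the difference of Auto.Pos from Auto.Neg within GE2-v5_91_0806 is also the one within slide 2. All other within-protocol differences still mix slide with group. They also mix scan day with group, except that of Auto.Pos from WT within GE2-v5_95_Feb07. The authors' deposited series table was not used for these values, since only 6 of its 16 columns matched the array they are labelled with better than another array. The table and the scanner files thus disagree on which sample an array holds for Auto.Pos sample 1 and for both samples of Auto.Neg and WT. By the scanner files, the 2 arrays of each sample correlated at 0.91 to 0.97. By the table's labels, both Auto.Neg pairs correlated at -0.97, so as labelled they do not act as dye-swap pairs. The table's Auto.Pos and WT pairs correlated at 0.90 to 0.97. Which sample each of these arrays holds was not settled here. The groups follow the record of each scanner file, and the values of the 3 replicated groups would differ under another attribution.

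Because each array ratio rests on a 60-base probe, the probes are shown for Nfkbia and Nfkb2, whose samples did not overlap between Auto.Pos and Auto.Neg, for Nfkbib, the gene with the smallest spread after loess, and for the Rela probe that moved with slide 2. They are written 5′ to 3′ in lower case. The coordinates are those of the array design on mouse build mm7, and no mm7 gene annotation was used here, so exons and introns are not given.
Nfkbia (NM_010907, chr12:53415998-53416493, minus strand): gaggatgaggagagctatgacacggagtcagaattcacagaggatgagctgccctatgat
Nfkb2 (NM_019408, chr19:46208290-46208429, plus strand): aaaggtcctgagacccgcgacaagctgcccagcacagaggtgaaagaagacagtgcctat
Nfkbib (NM_010908, chr7:25693284-25693965, minus strand): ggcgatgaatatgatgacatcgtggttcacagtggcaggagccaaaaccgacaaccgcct
Rela, dimmer probe (NM_009045, chr19:5541942-5542001, plus strand): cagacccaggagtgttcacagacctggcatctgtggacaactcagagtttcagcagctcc
The Nfkbia, Nfkb2 and Nfkbib probes cover 496, 140 and 682 bases of genome with their 60 bases, so they cross a gap in the alignment of 436, 80 and 622 bases, as a probe over an exon junction does. The dimmer Rela probe aligned without a gap.

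The promoters were searched for the letters of NF-kB binding motifs. RefSeq windows of build GRCm38.p6 were found for 7 of the 10 genes (Nfkb2, Rel, Rela, Nfkbia, Nfkbib, Nfkbie and Tnfaip3), and the 250 bases before each start were searched on both strands for 4 spellings of the kappa B motif. Each was GGGA or GGGG, then any 2 bases, then TTCC or TCCC. GGGA with TTCC occurred in 1.21%, GGGG with TTCC in 1.26%, GGGA with TCCC in 0.578% and GGGG with TCCC in 1.45% of 32851 windows. At least 1 of them lay before 5 of the 7 genes, against 4.75% of the 27025 genes with a window. The genes without a match were Rela and Nfkbib. Matches can overlap: in Rel and in 1 place in Nfkb2, the GGGA with TCCC match and a GGGG with TTCC match on the other strand share all but 1 base at each end. A match is a string of letters, and no binding was measured. The whole 250 bases are shown for Nfkbia, the gene with the smallest unadjusted p among the tested probes, and 30 bases around a match for 3 more genes, with the matched bases in capitals.
Nfkbia (chr12:55492648-55492897, minus strand): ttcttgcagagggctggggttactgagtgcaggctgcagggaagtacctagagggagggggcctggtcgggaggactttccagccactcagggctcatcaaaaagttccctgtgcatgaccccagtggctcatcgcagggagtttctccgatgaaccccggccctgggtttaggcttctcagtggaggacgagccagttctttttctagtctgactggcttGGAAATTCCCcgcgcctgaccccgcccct
Nfkbie (chr17:45555584-45555613, plus strand): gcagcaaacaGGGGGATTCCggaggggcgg
Tnfaip3 (chr10:19015411-19015440, minus strand): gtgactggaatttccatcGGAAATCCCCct
Rel (chr11:23771042-23771071, minus strand): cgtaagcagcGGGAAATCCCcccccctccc

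No member passed the test in any of the 3 replicated comparisons. At an adjusted p under 0.05 (limma, Benjamini-Hochberg over all genes tested), 0 of 10 members were called in Auto.Pos against Auto.Neg, where 0.0147% of all genes were called (3 of 20469). In Auto.Pos against WT, 0 of 10 members and 0% of genes were called, and the same held in Auto.Neg against WT (0% of genes). At an unadjusted limma p under 0.05 on the tested probes, the counts were 0 members and 1.04% of genes in Auto.Pos against Auto.Neg. They were 0 members and 5.63% of genes in Auto.Pos against WT, and 1 member (Nfkbia) and 4.6% of genes in Auto.Neg against WT. The differences below are therefore given as values with their standard errors (SE), and none of them stands as a change. In these bulk samples, fewer cells of a type and less RNA per cell cannot be told apart.

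**Figure D1:**
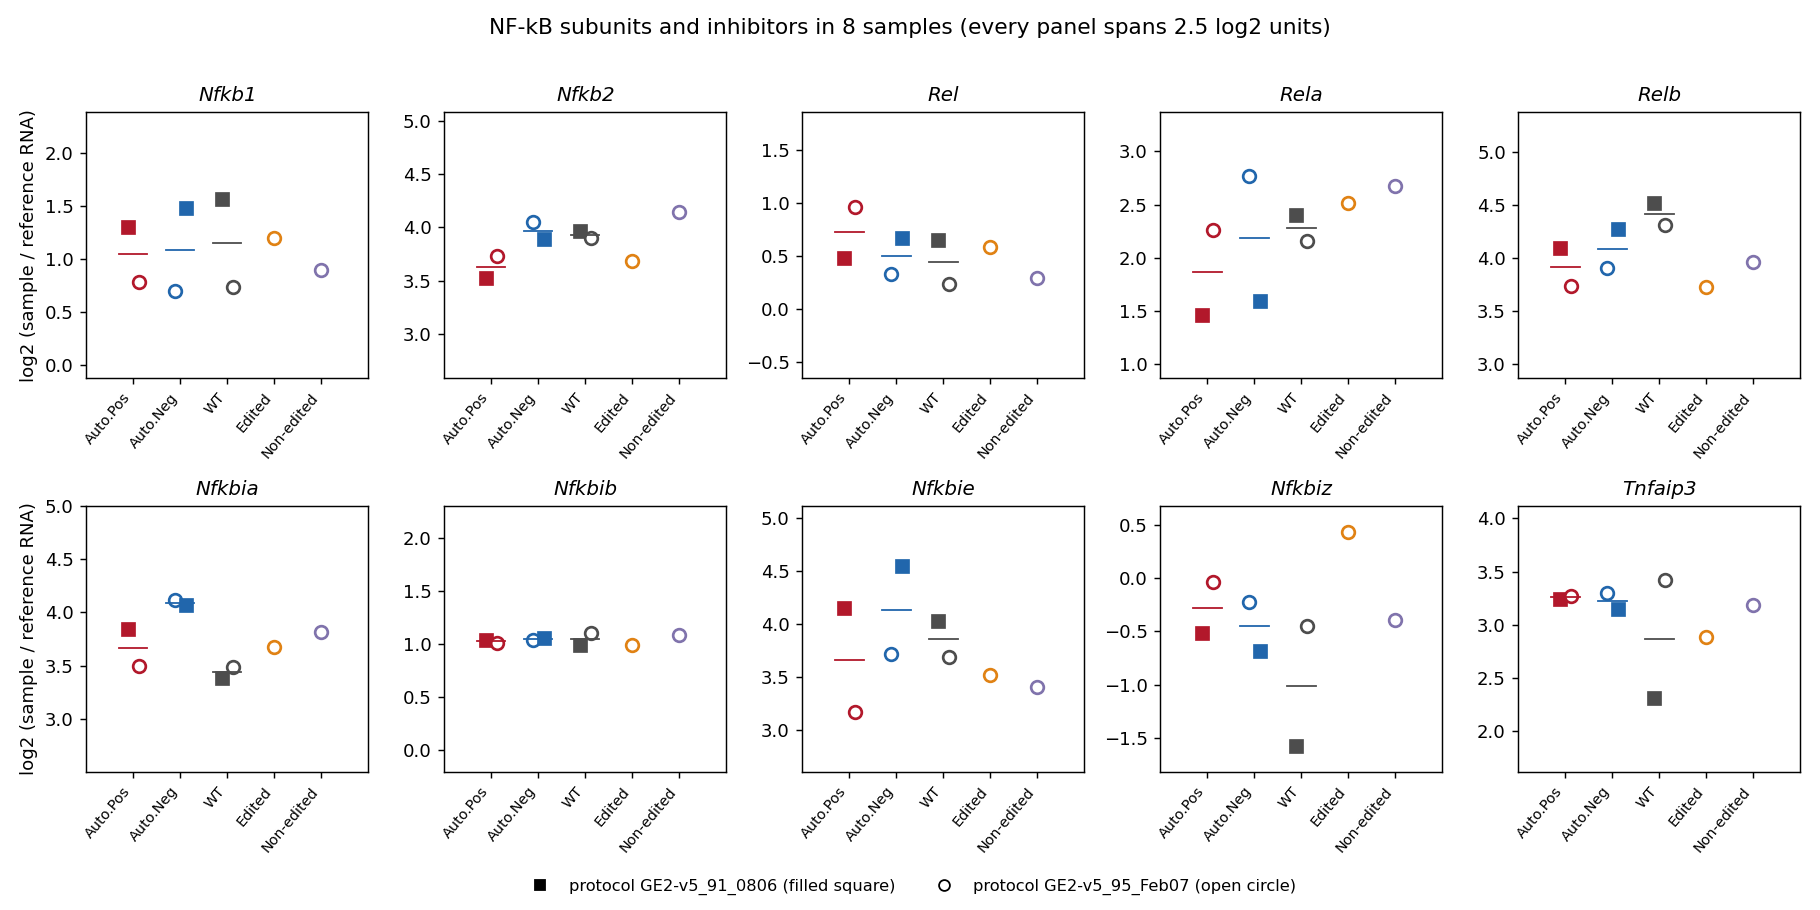
Log2 ratio of sample over reference RNA for the tested probe of each of the 10 genes (vertical axis) in Auto.Pos, Auto.Neg, WT, Edited and Non-edited cells (horizontal axis); each point is a sample, short lines are group means, filled squares are the protocol GE2-v5_91_0806 and open circles GE2-v5_95_Feb07. Auto.Neg lies above WT for Nfkbia in both samples, Nfkbib spans 0.99 to 1.11 after loess, and the filled squares of Auto.Pos and Auto.Neg sit together for Rela (1.46 and 1.59).

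Among the inhibitors, Nfkbia encodes IkB alpha, the inhibitor that is degraded and resynthesised fastest after stimulation. Nfkbia had the smallest unadjusted limma p among the members' tested probes. It read 3.84 and 3.49 in Auto.Pos, 4.12 and 4.07 in Auto.Neg, 3.39 and 3.49 in WT, 3.68 in Edited and 3.81 in Non-edited cells. Both Auto.Neg samples were the highest of the 8, WT sample 1 was the lowest, and Auto.Pos sample 2 and WT sample 2 were nearly level.
The Nfkbia difference of Auto.Neg from WT was 0.65 (SE 0.209, limma adjusted p = 0.969), or 1.57-fold, with 0.68 within GE2-v5_91_0806 and 0.63 within GE2-v5_95_Feb07. Leaving out 1 sample of these groups at a time gave 0.60 to 0.71. The difference was 0.08 after scale normalization between arrays, which raised WT sample 2 to 4.80. Auto.Pos differed from Auto.Neg by -0.42 (SE 0.209, limma adjusted p = 1.00), with -0.22 and -0.62 within the protocols. Auto.Pos differed from WT by 0.23 (SE 0.209, limma adjusted p = 1.00), with 0.46 and 0.00 within the protocols, and by -0.65 after scale normalization. The group means thus ran in the order Auto.Neg, Auto.Pos and WT.
In the separate channels, the sample signal of Nfkbia was 16.81 and 16.59 in Auto.Pos, 16.89 and 16.99 in Auto.Neg, and 16.50 and 16.65 in WT (log2 intensity). The reference signal was 12.97 and 13.10, 12.78 and 12.92, and 13.12 and 13.16 on the arrays of the same groups. Auto.Neg had the highest sample signals and the lowest reference signals of the 3 groups, and the ratio holds the sum of both. Macrophage and monocyte markers lay on the other side, and 11 of 11 tested read lower in Auto.Neg than in WT. Their median difference was -0.53, with 0 called by limma and 1 at an unadjusted limma p under 0.05, against 4.6% of all genes. Their medians per sample were 3.35 and 1.87 in Auto.Pos, 1.33 and 2.39 in Auto.Neg, and 2.60 and 2.77 in WT, and their part in the Nfkbia values was not tested.

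Tnfaip3 encodes A20, a ubiquitin-editing enzyme that shuts off signalling to NF-kB. It read 3.24 and 3.27 in Auto.Pos, 3.30 and 3.14 in Auto.Neg, 2.31 and 3.42 in WT, 2.88 in Edited and 3.18 in Non-edited cells. All samples but WT sample 1 lay within 2.88 to 3.42, and the WT samples enclosed those of both other groups. The difference from WT was 0.39 for Auto.Pos (SE 0.390, limma adjusted p = 1.00) and 0.35 for Auto.Neg (SE 0.390, limma adjusted p = 1.00). Without WT sample 1 these were -0.16 and -0.20, so their sign rests on that sample. Auto.Pos differed from Auto.Neg by 0.04 (SE 0.390).

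Nfkbie encodes IkB epsilon, an inhibitor that holds mainly Rel- and Rela-containing pairs. It read 4.15 and 3.18 in Auto.Pos, 3.72 and 4.54 in Auto.Neg, 4.03 and 3.69 in WT, 3.52 in Edited and 3.41 in Non-edited cells. The samples of slide 2 (4.15 and 4.54) were the highest of the 8, above WT sample 1. Auto.Pos differed from Auto.Neg by -0.46 (SE 0.449, limma adjusted p = 1.00), and that difference was -0.39 within GE2-v5_91_0806 and -0.54 within GE2-v5_95_Feb07. The difference of Auto.Neg from WT was 0.27 (SE 0.449) and turned to -0.18 with slide 2 as a block. In the separate channels, the Nfkbie reference signals were lowest on slide 2 (8.35 and 8.65, against 8.67 to 9.74 elsewhere). The sample signals there were 12.50 and 13.20, against 12.52 to 13.45 elsewhere.
Nfkbib encodes IkB beta, which is resynthesised slowly after stimulation. After loess it read 0.99 to 1.11 in all 8 samples (SD 0.0431), and 0.269% of genes tested had a smaller SD over the samples. That narrow range depended on the normalization: Nfkbib spanned -0.04 to 0.59 with median centring and 0.90 to 1.55 with scale normalization between arrays. Its group means were 1.02 ± 0.02 in Auto.Pos, 1.04 ± 0.02 in Auto.Neg and 1.05 ± 0.08 in WT (SD, n = 2 each).

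Nfkbiz encodes IkB zeta, a nuclear protein that modifies NF-kB target choice and is induced by Toll-like receptor signals. After loess its tested probe had the largest SD of the 10 tested probes over the samples, 0.580, and 84.5% of genes had a smaller SD. With median centring the largest SD was that of Rela, with scale normalization that of Relb and with the scanner software's log ratio that of Rel. It read -0.52 and -0.04 in Auto.Pos, -0.22 and -0.68 in Auto.Neg, -1.58 and -0.45 in WT, 0.44 in Edited and -0.39 in Non-edited cells. WT sample 1 was the lowest and Edited the highest, and all but Edited lay below the reference.
The Nfkbiz difference of Auto.Pos from WT was 0.74 (SE 0.447, limma adjusted p = 1.00), with 1.06 and 0.41 within the protocols, and 0.17 without WT sample 1. That of Auto.Neg from WT was 0.56 (SE 0.447, limma adjusted p = 1.00) and -0.01 without WT sample 1. The probe was dim, and in WT sample 1 the reference signal, 9.05, stood out (7.56 to 8.23 on the arrays of the other samples), while the sample signal of 7.47 lay within the 7.25 to 8.03 of the others. The low ratio of WT sample 1 thus came with a bright reference channel. The genes with the most similar pattern over the 8 samples were Zc3h6, Tsr2, Eif4enif1, Lss and Cnbp, with Pearson correlations of 0.962 to 0.972 to Nfkbiz. All of these ratios share 1 reference RNA, and WT sample 1 was the lowest of the 8 for each of these 5 genes as well.

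Of the subunits, Nfkb2 encodes p100, the precursor of p52 and an inhibitor of RelB until it is processed in the alternative pathway downstream of CD40 and the BAFF receptor. It read 3.53 and 3.73 in Auto.Pos, 4.05 and 3.89 in Auto.Neg, 3.96 and 3.90 in WT, 3.68 in Edited and 4.14 in Non-edited cells. Both Auto.Pos samples lay below all samples of Auto.Neg and WT.
The Nfkb2 difference of Auto.Pos was -0.34 from Auto.Neg (SE 0.192, limma adjusted p = 1.00), with -0.36 and -0.32 within the protocols. It was -0.30 from WT (SE 0.192, limma adjusted p = 1.00), with -0.44 and -0.17 within the protocols. Auto.Neg and WT differed by 0.04 (SE 0.192), less than the spread between replicates. After scale normalization the Nfkb2 differences were -0.65, -1.12 and -0.48 in the same order.

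Relb encodes the partner of p52 in the alternative pathway. It read 4.09 and 3.74 in Auto.Pos, 3.91 and 4.27 in Auto.Neg, 4.52 and 4.31 in WT, 3.73 in Edited and 3.96 in Non-edited cells. Both WT samples were the highest of the 8, so neither transgenic group overlapped with WT, while Auto.Pos and Auto.Neg overlapped with each other.
The Relb difference of Auto.Pos from WT was -0.49 (SE 0.244, limma adjusted p = 0.990), or 1.41-fold lower, with -0.42 and -0.57 within the protocols. With the protocol as a block, limma gave an adjusted p = 0.413. Auto.Neg differed from WT by -0.32 (SE 0.244, limma adjusted p = 1.00), with -0.24 and -0.40 within the protocols. Leaving out 1 sample at a time, the Relb difference of Auto.Neg from WT was -0.14 without Auto.Neg sample 1 and -0.50 without Auto.Neg sample 2. After scale normalization Relb differed by -1.43 between Auto.Pos and WT and by -0.94 between Auto.Neg and WT.

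Rela encodes p65, the main activating subunit of the classical pathway, and had 2 probes on the same transcript. The brighter probe (chr19:5542438-5542497, mm7) read 1.46 and 2.26 in Auto.Pos, 2.77 and 1.59 in Auto.Neg, 2.40 and 2.15 in WT, 2.51 in Edited and 2.68 in Non-edited cells. The dimmer probe, shown above, read -0.70 and 1.23 in Auto.Pos, 1.40 and -0.67 in Auto.Neg, 0.88 and 0.62 in WT, 1.47 in Edited and 1.48 in Non-edited cells. On both probes the lowest samples were those of slide 2, Auto.Pos sample 1 and Auto.Neg sample 2, whatever their group.
In the separate channels of the brighter Rela probe, the sample signal was 13.83 and 13.89 in the slide 2 samples and 13.89 to 14.15 in the others. The reference signal was 12.37 and 12.30 on slide 2 and 11.37 to 11.89 on the other slides, so the reference channel carried most of the gap. Rela and Nfkbie were the 2 of 10 members whose slide 2 samples both lay beyond the other 6, against 39% of all genes.
By group, Rela differed by -0.32 between Auto.Pos and Auto.Neg (SE 0.484, limma adjusted p = 1.00), by -0.41 between Auto.Pos and WT (SE 0.484, limma adjusted p = 1.00) and by -0.09 between Auto.Neg and WT (SE 0.484, limma adjusted p = 1.00). With slide 2 as a block the differences from WT were 0.08 and 0.40, so their sign depends on how slide 2 is treated.

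**Figure D2:**
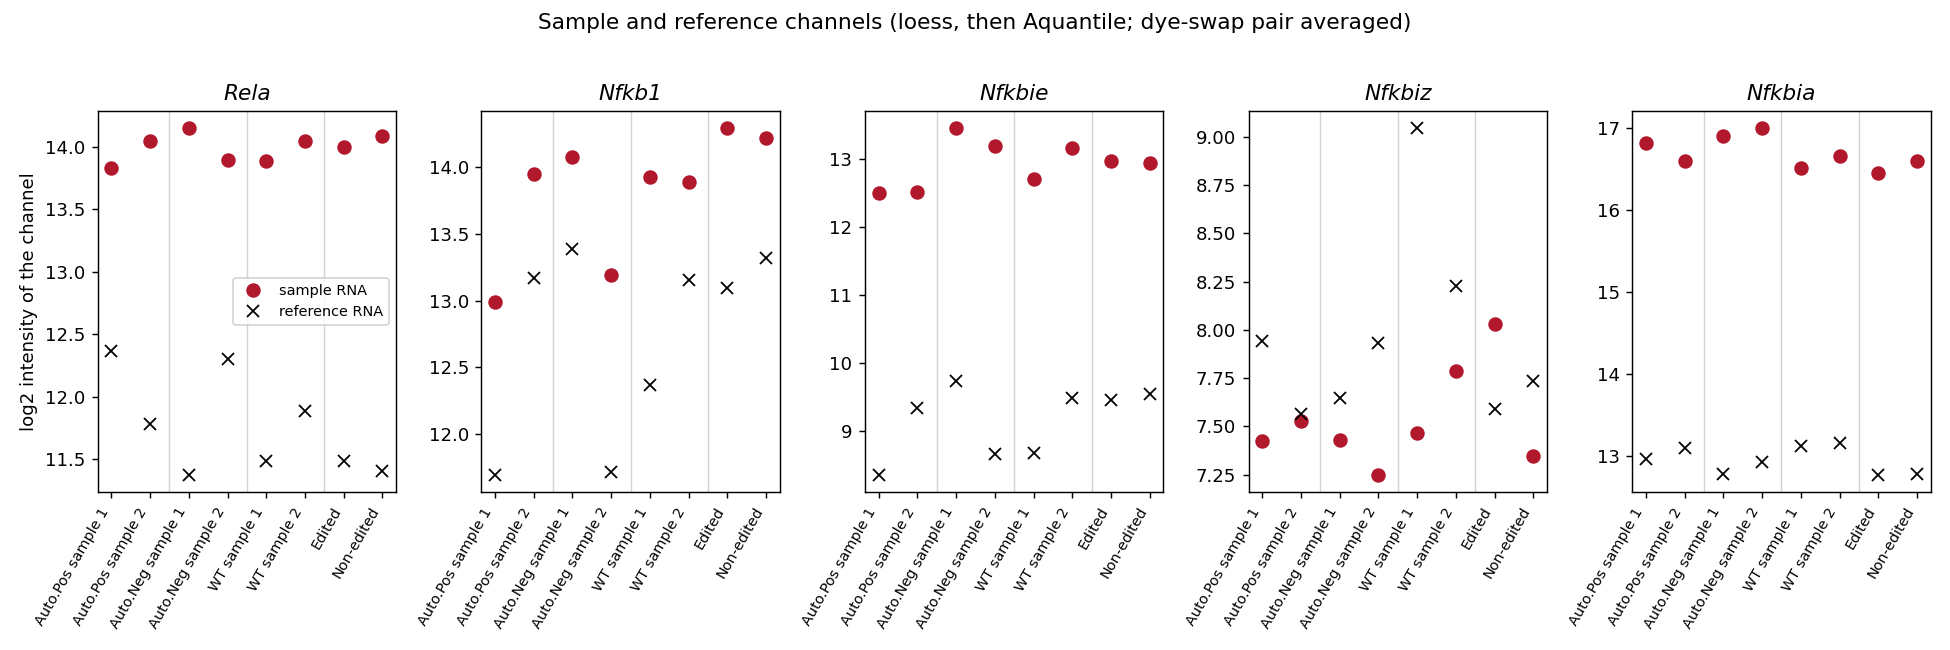
Log2 intensity of the sample RNA channel (red circles) and of the reference RNA channel (black crosses) for 5 genes in each of the 8 samples, after loess and Aquantile normalization, averaged over the dye-swap pair; the vertical scale differs by gene. The reference channel of Rela is highest in Auto.Pos sample 1 and Auto.Neg sample 2 (12.37 and 12.30), and that of Nfkbiz is highest in WT sample 1 (9.05).

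Nfkb1 encodes p105, the precursor of p50. Its tested probe (NM_008689, chr3:135379090-135379151, mm7) read 1.30 and 0.79 in Auto.Pos, 0.69 and 1.48 in Auto.Neg, 1.56 and 0.74 in WT, 1.20 in Edited and 0.90 in Non-edited cells. In each replicated group the GE2-v5_91_0806 sample was the higher, by more than any difference between groups. The group differences were -0.04, -0.11 and -0.06 for Auto.Pos against Auto.Neg, Auto.Pos against WT and Auto.Neg against WT, each with an SE of 0.429. In the separate channels of this probe, the slide 2 samples had the lowest sample signals (12.99 and 13.19, against 13.89 to 14.29 in the others). They also had the lowest reference signals (11.69 and 11.71, against 12.36 to 13.39).
The 3 other Nfkb1 probes lie at higher coordinates, at chr3:135405555-135405614 (AK048506), chr3:135406524-135406583 (BC050841) and chr3:135412575-135412634 (AK036827), and were designed on cDNA clones. They gave another pattern, with group means in the order Auto.Pos, Auto.Neg and WT on each probe. The AK048506 probe read 4.58 and 4.43 in Auto.Pos, 4.24 and 4.21 in Auto.Neg, and 4.02 and 3.06 in WT. The BC050841 probe read 4.77 and 4.19 in Auto.Pos, 3.98 and 4.50 in Auto.Neg, and 4.05 and 3.44 in WT. The AK036827 probe read 2.02 and 2.00 in Auto.Pos, 1.45 and 1.73 in Auto.Neg, and 1.17 and 0.58 in WT.
Auto.Pos lay above WT without overlap on all 3 of these probes and on the tested probe it did not. Of all genes tested, 19.2% lay higher without overlap in that comparison. The 3 probes were read in the same samples, so they are not independent of each other. In a fit with each probe as a feature, adjusted over 29640 probes, the difference of Auto.Pos from WT was 1.13 for AK036827 (SE 0.273, limma adjusted p = 0.630), 0.97 for AK048506 (SE 0.354, limma adjusted p = 0.894) and 0.74 for BC050841 (SE 0.360, limma adjusted p = 1.00). No Nfkb1 probe was called. The unadjusted limma p in Auto.Pos against WT was 0.0085 for AK036827, 0.040 for AK048506 and 0.095 for BC050841. In Auto.Neg against WT it was 0.046 for AK036827. Of the 29640 probes, 1587 had an unadjusted limma p under 0.05 in Auto.Pos against WT and 1289 in Auto.Neg against WT. The reference signal of AK036827 was well above background on 12 of 16 arrays, and its ratios differed by dye. With the sample in Cy5 they were 0.90 and 1.17 for Auto.Pos cells against 0.95 and 0.78 for WT, which overlap. With the sample in Cy3 they were 3.13 and 2.84 for Auto.Pos cells against 1.39 and 0.38 for WT. The tested Nfkb1 probe differed by dye about as much. Over the 8 samples its mean absolute gap between dyes was 0.92, against 0.93 for AK036827, 0.46 for AK048506 and 0.16 for BC050841. The AK036827 and AK048506 differences were 0.85 and 0.57 within GE2-v5_91_0806 and 1.42 and 1.37 within GE2-v5_95_Feb07. WT sample 2 was the lowest of the 8 samples on these 3 probes. The exons or introns under these probes were not looked up, so the 4 probes cannot be assigned to transcript forms here.

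**Figure D3:**
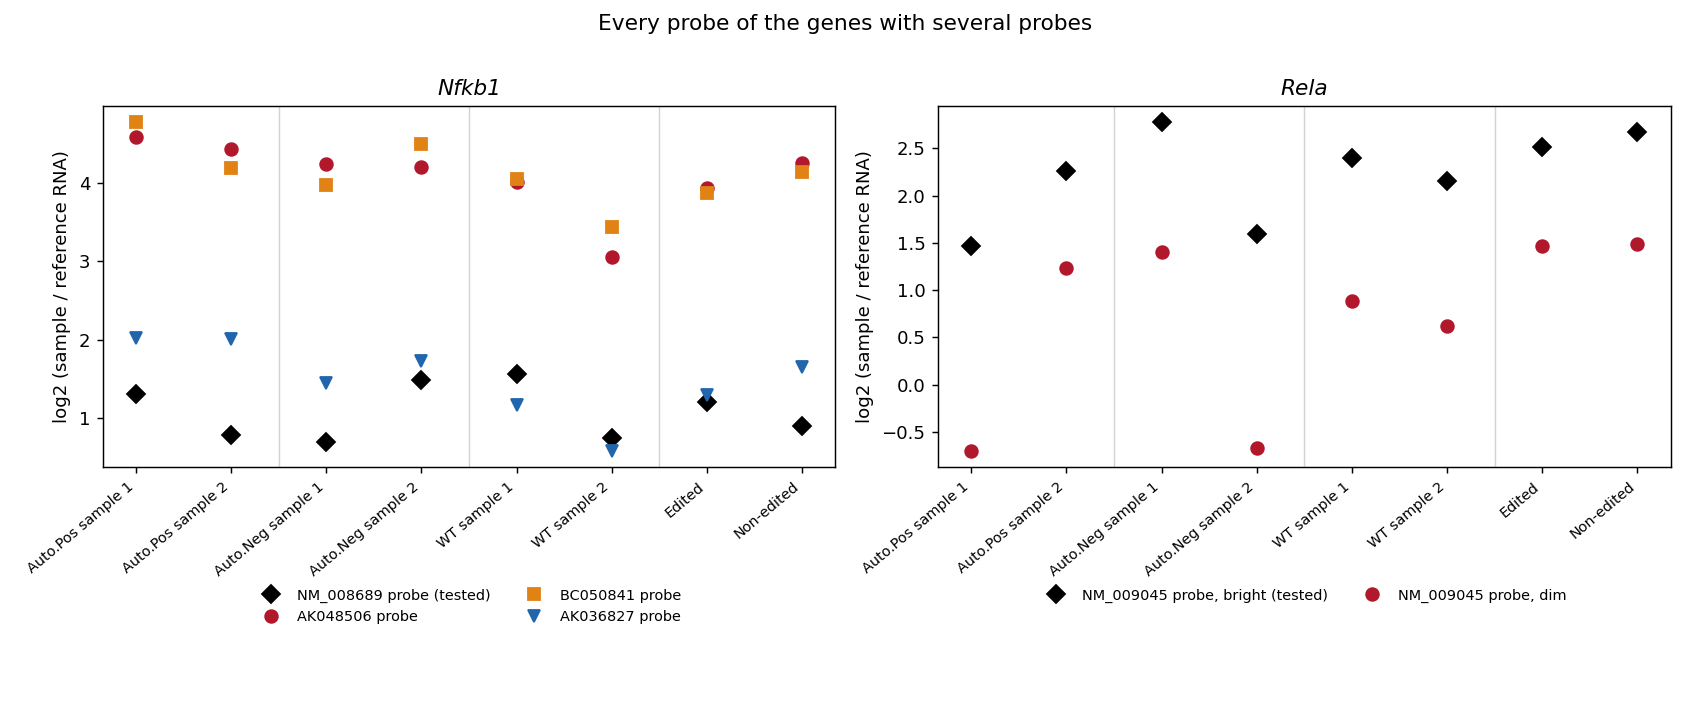
Log2 ratio of sample over reference RNA (vertical axis) in each of the 8 samples (horizontal axis) for the 4 Nfkb1 probes (left) and the 2 Rela probes (right). The 3 clone-based Nfkb1 probes are lowest in WT sample 2, the tested Nfkb1 probe is lowest in Auto.Neg sample 1 (0.69), and both Rela probes are lowest in Auto.Pos sample 1 and Auto.Neg sample 2.

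Rel encodes c-Rel, a subunit prominent in lymphocytes and needed for B cell proliferation. Its probe was well above background on 15 of 16 arrays in the sample channel but on 6 of 16 in the reference channel, so its ratio is often set against a reference signal not well above background. It read 0.48 and 0.96 in Auto.Pos, 0.33 and 0.67 in Auto.Neg, 0.65 and 0.24 in WT, 0.58 in Edited and 0.29 in Non-edited cells. The groups overlapped, and the differences were 0.22 (SE 0.284), 0.28 (SE 0.284) and 0.06 (SE 0.284) for Auto.Pos against Auto.Neg, Auto.Pos against WT and Auto.Neg against WT. With the scanner software's log ratio these Rel differences were -0.13, 0.93 and 1.05, so their size, and the sign of the first, depend on that choice.

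The counts of members whose groups separated were read against those of all genes. Samples did not overlap for 0 members higher and 2 lower (Nfkb2 and Nfkbia) in Auto.Pos against Auto.Neg, where 11.1% of genes lay higher and 8.17% lower without overlap. In Auto.Pos against WT 1 member lay higher (Nfkbia) and 2 lower (Nfkb2 and Relb), with 19.2% and 10.4% of genes. In Auto.Neg against WT 1 lay higher (Nfkbia) and 1 lower (Relb), with 15.4% and 9.57% of genes.
The median difference of the 10 members was -0.11 in Auto.Pos against Auto.Neg (all genes 0.02), -0.07 in Auto.Pos against WT (all genes 0.06) and 0.05 in Auto.Neg against WT (all genes 0.04). These comparisons share samples pairwise, so they are not independent of each other. Scale normalization between arrays moved the members' medians to -0.36, -0.53 and -0.23 and gave 0.02, 0.07 and 0.05 over all genes.

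**Figure D4:**
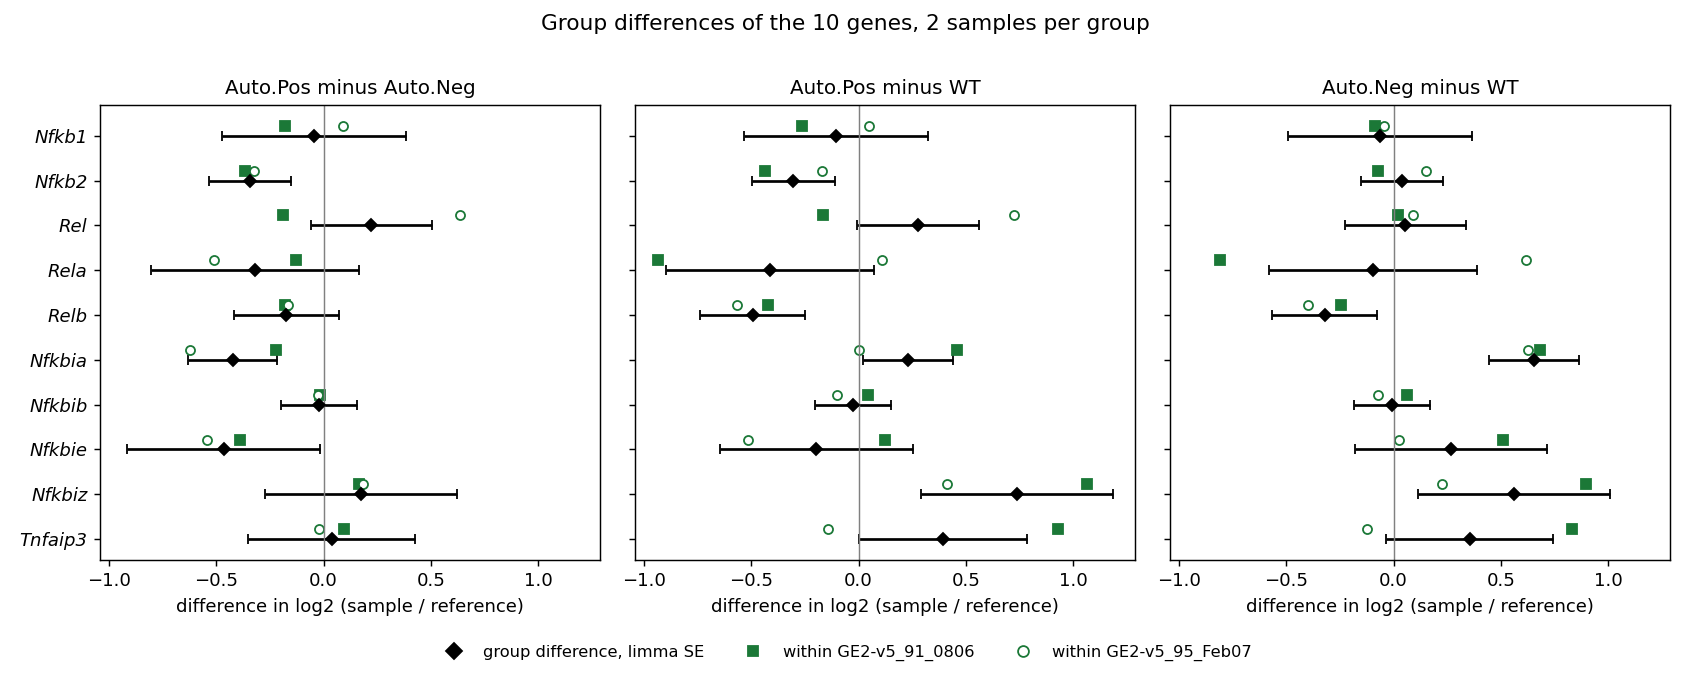
Difference in log2 ratio between groups (horizontal axis) for the 10 genes (vertical axis) in the 3 replicated comparisons; diamonds are group differences from limma, bars are their standard errors, and green symbols are the differences within each extraction protocol from 1 sample per group. The Nfkbia difference of Auto.Neg from WT (0.65) is alike in both protocols, whereas the Rela differences from WT lie on opposite sides of 0 in the 2 protocols.

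The Edited and Non-edited cells were compared as single samples, with no replicate check and no p-value. No member differed by 2-fold or more in both dye orientations, against 1.39% of all genes. The largest difference was that of Nfkbiz, 0.83 or 1.77-fold higher in Edited cells, with 0.66 with the sample in Cy5 and 1.00 with the sample in Cy3. With the scanner software's log ratio it was 1.49 for Nfkbiz, and the Rel difference was 0.69. Nfkb2 was lower in Edited cells by a difference of -0.46, with -0.56 and -0.35 in the 2 orientations. The tested Nfkb1 probe and Rel read higher in Edited cells (0.30 and 0.29), and Tnfaip3, Relb, Rela and Nfkbia lower (-0.30, -0.24, -0.17 and -0.14). The other Nfkb1 probes read lower in Edited than in Non-edited cells: 3.93 against 4.25 (AK048506), 3.87 against 4.15 (BC050841) and 1.29 against 1.65 (AK036827). With the sample in Cy5, AK036827 read 1.33 in Edited against 1.18 in Non-edited cells. Nfkbie and Nfkbib changed sign between dye orientations. The median over the members was -0.12, and -0.03 over all genes. With each array centred on its median in place of loess, the members' median was 0.12 and 8 of 10 differences were positive, so the differences of Rela, Relb, Nfkbia and Nfkbib turned sign with that choice.

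The genes upstream of NF-kB were examined as a list of 29 activation pathway genes, all of them tested. None was called in a replicated comparison, and 1, 4 and 2 genes had an unadjusted limma p under 0.05 in Auto.Pos against Auto.Neg, Auto.Pos against WT and Auto.Neg against WT. Over all genes tested, the shares at that limma p were 1.04%, 5.63% and 4.6% in the same order. The median differences were 0.01, -0.12 and -0.11 (all genes 0.02, 0.06 and 0.04), with 15, 12 and 12 of 29 genes higher.
Nod1, a cytosolic receptor for bacterial peptidoglycan fragments, is named in the title of the study and read 5.45 and 5.08 in Auto.Pos, 2.89 and 3.23 in Auto.Neg, and 4.04 and 3.66 in WT. The Nod1 difference of Auto.Pos was 2.20 from Auto.Neg (SE 0.263, limma adjusted p = 0.485) and 1.42 from WT (SE 0.263, limma adjusted p = 0.400). Traf3, an adaptor that restrains the alternative pathway, read -0.07 and -0.23 in Auto.Pos, -0.21 and -0.12 in Auto.Neg, and 0.61 and 1.44 in WT. Its difference from WT was -1.17 for Auto.Pos (SE 0.317, limma adjusted p = 0.637) and -1.19 for Auto.Neg (SE 0.317, limma adjusted p = 0.846). Both WT samples were above all transgenic samples, Edited (0.16) and Non-edited (0.01) included.
Malt1, a protease that acts in signalling to NF-kB, read 4.70 and 4.60 in Auto.Pos cells against 4.28 and 3.45 in WT (difference 0.79, SE 0.321, limma adjusted p = 0.905). In Edited against Non-edited cells Ikbkg, the regulatory subunit of the IkB kinase, read 1.36 against 0.46, Ripk1, a kinase of death receptor signalling, 0.59 against 1.22, and Nod1 4.07 against 1.60.

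A list of 17 other negative regulators and atypical IkB proteins had 15 genes tested and none called or at an unadjusted limma p under 0.05. Of these, 8, 13 and 13 read higher in Auto.Pos against Auto.Neg, Auto.Pos against WT and Auto.Neg against WT, and the medians were 0.09, 0.25 and 0.21 (all genes 0.02, 0.06 and 0.04). None of them was 1.5-fold or more apart without overlap of the samples.

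Of 36 listed NF-kB target genes outside the members, 30 were tested and none was called, with 1, 3 and 4 at an unadjusted limma p under 0.05 in Auto.Pos against Auto.Neg, Auto.Pos against WT and Auto.Neg against WT. Over all genes tested, the shares at that limma p were 1.04%, 5.63% and 4.6%. The medians were -0.11, -0.09 and 0.04 (all genes 0.02, 0.06 and 0.04). Marcksl1, a regulator of actin, read -0.44 and -0.76 in Auto.Pos, 0.36 and 0.39 in Auto.Neg, and 0.33 and 0.40 in WT. Its difference was -0.98 from Auto.Neg (SE 0.202) and -0.97 from WT (SE 0.202, limma adjusted p = 0.492).
Ccnd2, a D-type cyclin, read -0.77 and -1.55 in Auto.Pos, -0.54 and -0.99 in Auto.Neg, and 0.08 and 0.19 in WT. Traf1, an adaptor and a classical NF-kB target, read 3.37 and 2.89 in Auto.Pos cells and 3.46 and 4.14 in Auto.Neg cells (difference -0.67, SE 0.367). Pim1, a survival kinase, read 2.90 and 3.26 in Auto.Pos, 2.70 and 2.28 in Auto.Neg, and 2.39 and -0.02 in WT, so its WT samples lay far apart. The cytokine gene Lta read 1.76 and 0.17 in Auto.Pos cells against 2.06 and 1.87 in WT.
Cd69, an early activation marker, read 2.72 and 2.92 in Auto.Neg against 2.36 and 1.88 in WT (difference 0.70, SE 0.251, limma adjusted p = 1.00). Junb, an AP-1 subunit, read 2.72 and 2.90 in Auto.Neg against 2.58 and 1.14 in WT. Irf4, a plasma cell regulator, read 0.88 and -0.36 in Auto.Neg against 1.05 and 0.97 in WT. In Edited against Non-edited cells the survival gene Bcl2a1b read 7.38 against 6.15, Ccnd2 0.65 against -0.03, Plek, a protein kinase C substrate, 5.07 against 4.45, and Cd69 1.99 against 2.66. Bcl2a1b has near-identical copies, so its probe may also report them.

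The 17 immediate early genes, which respond to receptor engagement within the first wave of transcription, were all tested, and none was called or at an unadjusted limma p under 0.05 in a replicated comparison. The medians were -0.01, -0.01 and 0.14 in Auto.Pos against Auto.Neg, Auto.Pos against WT and Auto.Neg against WT (all genes 0.02, 0.06 and 0.04). Dusp1, a phosphatase of MAP kinases, read 1.06 and 0.53 in Auto.Pos, 0.38 and 1.13 in Auto.Neg, and 0.36 and -0.34 in WT. Fos read 0.51 and 0.71 in Auto.Pos cells against 0.26 and -0.31 in WT, whereas Egr2 (4.04 and 2.94 against 4.07 and 4.37) and Ier2 (0.58 and 1.07 against 1.47 in both samples) read lower in Auto.Pos than in WT. Jund read 2.35 and 3.01 in Auto.Neg against 2.35 and 1.26 in WT. In Edited against Non-edited cells, Egr3 read 5.03 against 3.35, Egr2 4.31 against 2.77, Nr4a1 0.53 against -0.26, and Egr1 0.51 against -0.24. Of the 17 genes, 9 read higher and 8 lower in that comparison of single samples, with a median of 0.11 (all genes -0.03).
Markers of other cells were set beside these lists. Platelet markers had a median of 1.13 and 0.14 in Auto.Pos, 0.07 and -0.09 in Auto.Neg, and -0.10 and 0.24 in WT. Of these, 5 of 5 read higher in Auto.Pos than in Auto.Neg (median difference 1.42, 0 called by limma). In that comparison 4 lay higher without overlap, against 11.1% of all genes. From WT, 5 of 5 read higher in Auto.Pos as well (median difference 1.23), 0 of them without overlap. Neutrophil markers had 2.46 and 1.58, 3.24 and 1.06, and 2.20 and 2.56. T cell markers had -1.68 and -1.77, -1.95 and -1.92, and -2.67 and -1.60, and dendritic cell markers lay between 0.16 and 0.48 in all 8 samples. None of these markers was called in a replicated comparison, and their part in the values of the members was not tested.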

How the data were processed

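Per the file headers, the arrays were read with Agilent Feature Extraction 9.1.1.1, 9.1.3.1 or 9.5.1.1, and the deposited scanner files hold the mean and background intensity of each spot in both dyes and a log10 ratio. The submitters' processing notes name limma, without a version. The deposited matrix of the authors holds log2 ratios; its 10 columns for Auto.Pos sample 1 and both samples of Auto.Neg and WT each matched another array best, and 2 of its columns ran opposite to the array they matched, so it was used only as an alternative. No column lacked a sample.

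From the intensities, the background was corrected by normexp (offset 50), dyes were balanced by loess (controls given weight 0), spots marked as outliers were dropped, spots of a probe were averaged, and each dye-swap pair was turned to sample over reference and averaged (limma 3.58.1, R 4.3.3). Of 41174 probes, 29640 were well above background on both arrays of at least 2 of 8 samples. The brightest kept probe stood for each of 20469 genes, and limma fitted all 8 samples with Benjamini-Hochberg adjustment and 3 residual degrees of freedom. The script was tested on simulated data.

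The members and gene lists were chosen with earlier results of these data known. Named from each list were called genes, otherwise up to 4 per comparison at least 1.5-fold apart without overlap of the samples, and 5 genes most correlated with the member most variable after loess. A result that this rule would name is not reported here. Replicate numbers did not pair the samples: deviations of same-numbered samples correlated at -0.79 between Auto.Pos and Auto.Neg, 0.25 between Auto.Pos and WT, and -0.28 between Auto.Neg and WT. Alternatives covered the ratio, normalization, filter, samples, blocks, probes, single samples left out and the series table.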

Additional observations from a re-analysis of the deposited data

How the results depend on the processing

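No member was called under any alternative made from the scanner files, but 54 of the 586 values of single members under these alternatives had the other sign, as had 4 of 49 medians over the members; the cause was not tested. The medians that turned were 0.095 without Auto.Pos sample 2 and 0.020 with slide 2 as a block (Auto.Pos against WT), -0.23 with scale normalization (Auto.Neg against WT) and 0.12 with median centring (Edited against Non-edited). With the scanner software's log ratio, Rel turned to -0.13 (Auto.Pos against Auto.Neg) and Nfkb2 to -0.016 (Auto.Neg against WT). Rel was at 0.93 (Auto.Pos against WT) and 1.05 (Auto.Neg against WT) with that log ratio. Between Edited and Non-edited cells it put 1 member, Nfkbiz at 1.49, 2-fold apart, and Nfkbie read -0.00053. With the loess ratios, 1 member, Nfkbiz, was at least 1.5-fold apart between these cells in both dye orientations. The share of all genes was not taken for these counts. With median centring, Rela, Relb, Nfkbia and Nfkbib turned to 0.085, 0.020, 0.093 and 0.15 (Edited against Non-edited), Tnfaip3 turned to -0.10 (Auto.Pos against Auto.Neg) and Nfkb2 to -0.017 (Auto.Neg against WT). With scale normalization, Tnfaip3 turned to -0.24 (Auto.Pos against Auto.Neg), Nfkbia and Tnfaip3 to -0.65 and -0.40 (Auto.Pos against WT), and Nfkb2, Rel, Nfkbie and Tnfaip3 to -0.48, -0.012, -0.33 and -0.16 (Auto.Neg against WT), and the median of the members in Auto.Pos against WT moved to -0.53. The same setting enlarged Nfkb2, Rela, Relb and Nfkbie to -1.12, -0.84, -1.43 and -1.06 (Auto.Pos against WT), Relb to -0.94 (Auto.Neg against WT), and Nfkbia and Nfkbie to -0.72 and -0.73 (Auto.Pos against Auto.Neg). With slide 2 as a block, chosen after seeing the data, Rela turned to 0.080 (Auto.Pos against WT) and 0.40 (Auto.Neg against WT) and Nfkbie to -0.18 (Auto.Neg against WT). Without the samples of slide 2, also chosen after seeing the data, Nfkb1 and Tnfaip3 turned to 0.092 and -0.021 (Auto.Pos against Auto.Neg) and Rel, Rela and Nfkbie to -0.12, 0.50 and -0.14 (Auto.Neg against WT).

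Leaving out 1 sample at a time, the values in Auto.Pos against Auto.Neg ranged from -0.44 to 0.35 for Nfkb1, -0.017 to 0.46 for Rel, -0.91 to 0.27 for Rela, -0.35 to 0.0090 for Relb, -0.95 to 0.024 for Nfkbie, -0.065 to 0.42 for Nfkbiz and -0.038 to 0.11 for Tnfaip3. In Auto.Pos against WT they ranged from -0.52 to 0.31 for Nfkb1, -0.084 to 0.030 for Nfkbib, -0.69 to 0.29 for Nfkbie, 0.17 to 1.30 for Nfkbiz and -0.16 to 0.95 for Tnfaip3. In Auto.Neg against WT they ranged from -0.48 to 0.35 for Nfkb1, -0.040 to 0.12 for Nfkb2, -0.15 to 0.26 for Rel, -0.68 to 0.50 for Rela, -0.50 to -0.14 for Relb, -0.064 to 0.050 for Nfkbib, -0.14 to 0.68 for Nfkbie, -0.0063 to 1.13 for Nfkbiz and -0.20 to 0.91 for Tnfaip3.

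The authors' deposited series table, read by its column labels, called 9 members in Auto.Pos against Auto.Neg (median 2.60) and 7 in Auto.Neg against WT (median -2.99). In all, 7653 and 6899 genes were called. The table's 2 columns of each Auto.Neg sample ran opposite to each other (correlations of -0.97 for both samples), so averaging them cancels the ratios. These calls and medians therefore do not stand as group differences. With the replicate number as a block, 0 genes were called in each of the 3 comparisons (limma; 130, 753 and 611 at an unadjusted p under 0.05), and with the extraction protocol as a block, which for Auto.Pos and Auto.Neg is the crossed pairing, 6, 0 and 0 genes. Over all genes, the scanner software's log ratio called 15 genes and scale normalization 6 in Auto.Pos against WT, where 0 were called above. The slide as a random block could not be fitted, because only slide 2 holds more than 1 sample. The reference signal of Rel, well above background on 6 of 16 arrays, limits its ratios.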
